A study of Rattus norvegicus with 10 samples.

Results

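Complement is a cascade of plasma and tissue proteins that tags cells and debris for removal and calls in immune cells. Its classical pathway starts with C1q, a recognition protein built from the chains C1qa, C1qb and C1qc, which carries the proteases C1r and C1s. C1s cleaves C4 and C2, the resulting convertase cleaves C3, and later steps release C5a, the peptide that acts on the receptor C5ar1. In the nervous system, macrophages and microglia are known as the main source of C1q, and C1q and C3 are known for marking synapses and injured axons for removal.

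The genes described here are 9 complement genes: the initiating components C1qa, C1qb, C1qc, C1s and C2, the effector components C3 and Cfb, the regulator Serping1 and the receptor C5ar1. They were chosen by name, and their values were taken from probe sets that the platform annotation pairs with a single gene symbol. That left 7 genes of 14217 in all, each with 1 probe set. C2 and Cfb share 4 probe sets that carry both symbols, so neither gene was analysed.

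The series compared axonal RNA of dorsal root ganglion neurons, the sensory neurons that serve body and limbs, on 10 Affymetrix rat arrays. The adult group held 5 arrays labelled as axons from an adult rat, and the embryonic group 5 arrays labelled as axons from a rat embryo of embryonic day 16. In both groups ganglion explants grew for 4 days in a chamber with compartments, and axons longer than 1 cm were taken from the outer compartment. No allele or agent is named for any sample. The sources used here give no strain, no adult age and no word on pooling of animals. An explant also holds glia, fibroblasts and blood-borne cells beside its neurons.

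Within an array, values had a standard deviation between 1.52 and 2.09 on adult arrays and between 1.68 and 1.97 on embryonic arrays. It was above the middle of its range on adult replicates 4 and 5 and embryonic replicates 1 and 5, called the arrays of wide spread below. Poly-A control transcripts, meant to be spiked in before labelling, were at 7.07 to 10.91 on adult and 1.96 to 2.56 on embryonic arrays on the log2 scale. A 5S ribosomal RNA control was at 2.72 to 5.62 on adult and 7.43 to 10.32 on embryonic arrays. Labelling and stage therefore cannot be told apart in any result below. Each array's background level was set by genes typical of other tissues, as the 95th percentile over their 86 probe sets. It came to 2.88 to 4.16 on adult and 3.13 to 4.07 on embryonic arrays. On the arrays of wide spread it was 2.88 to 3.35, and on the others 3.31 to 4.16. An equal value can therefore lie above background on an array of wide spread and below it on another. Over all 14217 genes, 3232 were above background on all adult and 4148 on all embryonic arrays. Of 14 measured sensory neuron markers, 9 were above it on all adult and 10 on all embryonic arrays, and 4 fell and 0 rose. Among those that fell, the intermediate filaments Prph and Nefl changed most, by -4.32 and -3.72 on the log2 scale (limma adjusted p = 0.020 and 0.036).

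The genes of the C1q chains lie side by side on rat chromosome 5 in the order C1qb, C1qc, C1qa, with 0 annotated genes between them in RefSeq GRCr8. The 250 bases before the annotated start of C1qa and of C1qb, which encode partner chains, are shown. C1qa passed the test between stages and C1qb did not, but whether their changes differed was not tested. C1qb was above background on only 3 arrays of each stage. The promoter sequences used here held no entry for C1qc, which lies between them, or for C1s, Serping1 and C5ar1. The sequences are from RefSeq (GRCr8). C1qa is chr5:154419934-154420183 and C1qb is chr5:154407828-154408077, both on the minus strand. They are written 5′ to 3′, and capitals mark GGAAGT, letters at the core of many ETS-factor sites, or its reverse complement ACTTCC.
C1qa: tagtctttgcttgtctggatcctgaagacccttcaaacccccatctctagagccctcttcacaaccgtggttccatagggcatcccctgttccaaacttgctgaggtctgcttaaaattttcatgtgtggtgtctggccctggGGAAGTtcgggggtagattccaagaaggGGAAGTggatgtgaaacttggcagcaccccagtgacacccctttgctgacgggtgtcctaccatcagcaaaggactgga
C1qb: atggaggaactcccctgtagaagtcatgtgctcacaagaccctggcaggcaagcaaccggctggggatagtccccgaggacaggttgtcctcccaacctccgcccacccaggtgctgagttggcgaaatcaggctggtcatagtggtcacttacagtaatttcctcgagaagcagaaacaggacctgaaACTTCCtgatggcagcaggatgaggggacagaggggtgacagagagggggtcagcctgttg
The C1qa stretch held GGAAGT 2 times on the written strand, with first bases at -107 and -79 counted from the base before the annotated start as -1. The C1qb stretch held ACTTCC 1 time, with its first base at -61, and the same 250 bases before C3 held 0 matches. GGAAGT in either orientation occurred in 19.2% of 33469 rat promoters of this length. A match is a description of letters and not of a binding site.

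Of the 7 genes, C1qa and C5ar1 rose in adult axonal RNA and 0 fell. C1qa was 12.2-fold higher in adult than in embryonic samples (95% confidence interval 4.74 to 31.6) and C5ar1 was 9.58-fold higher (4.88 to 18.8). C1qb, C1qc, C1s, C3 and Serping1 did not pass the threshold, an adjusted p of 0.05 over 31042 probe sets. Over all genes 0.612% passed it with a higher adult level, 0.647% with a lower one and 1.26% in either direction, and of all probe sets 0.831% passed. At an unadjusted p under 0.05, 4 of the 7 were higher in adult samples (C1qa, C1qc, C3 and C5ar1), against 6.28% of all genes. All 7 changes were above 0, as were 49.9% of all genes, and the median change of the 7 was 1.90 on the log2 scale, against 0.00 over all genes. The 7 genes were chosen with earlier results of these data known, so these shares are descriptions. Of 33 other measured complement genes 57.6% had a change above 0, with a median of 0.20, and 11 were below background on all arrays. In bulk RNA, fewer cells of a type and less RNA per cell cannot be told apart.

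C1qa, a chain of the recognition protein C1q, had log2 values of 7.85, 8.02, 7.69, 7.93 and 6.17 on adult replicates 1 to 5. Embryonic replicates 1 to 5 had 6.18, 3.66, 3.57, 2.64 and 3.55. Adult replicate 5 and embryonic replicate 1 met at nearly the same level, and the other adult arrays all lay above the other embryonic arrays. The means were 7.53 ± 0.77 in adult and 3.92 ± 1.33 in embryonic samples (SD, n = 5), a log2 change of 3.61 ± 0.62 (SE; limma adjusted p = 0.024). C1qa was above background on 5 adult and 3 embryonic arrays, and its change held rank 77 among 14217 genes from the largest rise down. The call was lost without any of adult replicates 1, 2, 3 or 4 or embryonic replicates 2, 3 or 5 (limma adjusted p = 0.058 to 0.073), while the change stayed between 3.29 and 4.18 over all 10 omissions.

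C1qc, the chain encoded next to C1qa, had log2 values of 7.88, 6.20, 3.90, 6.64 and 5.28 on adult replicates 1 to 5. On embryonic replicates 1 to 5 it was at 6.06, 3.31, 1.76, 2.45 and 2.62. Adult replicate 3 was low and embryonic replicate 1 was high, and in 23 of 25 pairings of an adult with an embryonic array the adult value was the higher. The log2 difference was 2.74 ± 0.88 (SE, 95% confidence interval 0.79 to 4.69; limma adjusted p = 0.25), so C1qc did not pass the threshold. It was above background on 4 adult arrays and on 1 embryonic array, replicate 1. Without that array the difference was 3.44 (limma adjusted p = 0.077).

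C1qb, the remaining chain, had log2 values of 6.41, 3.84, 3.87, 5.25 and 4.19 on adult replicates 1 to 5. On the embryonic arrays the values were 4.58, 3.30, 4.09, 4.68 and 3.06. The stages overlapped between 3.84 and 4.68, with adult replicates 1 and 4 highest. In 17 of 25 pairings of an adult with an embryonic array the adult value was the higher. The log2 difference was 0.77 ± 0.54 (SE, 95% confidence interval -0.43 to 1.97; limma adjusted p = 0.76). It was above background on 3 arrays of each stage, so part of its range lay at or below background. Whether the C1q chains differed from each other in their change was not tested.

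C1s, the protease that C1q carries and that cleaves C4 and C2, had log2 values of 2.53, 2.89, 5.02, 7.63 and 5.87 on adult replicates 1 to 5. In embryonic samples the values were 5.41, 3.36, 2.33, 2.47 and 2.03. Adult replicates 1 and 2 lay among the low embryonic arrays, whereas adult replicates 3, 4 and 5 and embryonic replicate 1 were high. The log2 difference was 1.67 ± 0.99 (SE, 95% confidence interval -0.52 to 3.86; limma adjusted p = 0.68). It was 3.03 on the arrays of wide spread, 2 per stage, and 0.76 on the others, 3 per stage (limma adjusted p = 0.46 and 0.79). Whether these differences of C1s themselves differed was not tested.

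C3, the component on which all activation routes converge, had log2 values of 3.50, 4.41, 4.81, 8.19 and 3.74 on adult replicates 1 to 5. Embryonic replicates 1 to 5 had 3.36, 3.02, 2.29, 3.29 and 3.19. All adult arrays lay above all embryonic arrays, with adult replicates 1 and 5 only a little above and adult replicate 4 far above. The log2 difference was 1.90 ± 0.77 (SE, 95% confidence interval 0.20 to 3.60; limma adjusted p = 0.42). Without adult replicate 4 it was 1.09 (limma adjusted p = 0.32). C3 was above background on 4 adult arrays and 1 embryonic array.

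Serping1, the inhibitor of C1r and C1s, had log2 values of 2.59, 2.53, 4.68, 6.19 and 6.73 on adult replicates 1 to 5. On embryonic replicates 1 to 5 it was at 3.19, 2.09, 3.66, 3.48 and 1.95. Adult replicates 3, 4 and 5 were above every embryonic array, and adult replicates 1 and 2 lay within the embryonic range. The log2 difference was 1.67 ± 0.84 (SE, 95% confidence interval -0.18 to 3.52; limma adjusted p = 0.57). It was 3.89 on the arrays of wide spread, 2 per stage, and 0.19 on the others, 3 per stage (limma adjusted p = 0.12 and 0.96). Whether these differences of Serping1 themselves differed was not tested.

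C5ar1, the C5a receptor of myeloid cells, had log2 values of 7.74, 7.16, 7.81, 7.79 and 6.82 on adult replicates 1 to 5. Its embryonic values were 5.15, 2.78, 4.66, 4.65 and 3.79. The adult arrays lay close together and all above the embryonic ones. The means were 7.46 ± 0.45 in adult and 4.20 ± 0.94 in embryonic samples (SD, n = 5), a log2 change of 3.26 ± 0.44 (SE; limma adjusted p = 0.0072). It was above background on 5 adult and 4 embryonic arrays, and its change held rank 101. The call held without any 1 array, at limma adjusted p = 0.0061 to 0.026.

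C5ar1 and C3 were the 2 of 7 genes whose stages did not overlap, with adult values above. Over all genes 1.67% had adult values above embryonic ones without overlap and 1.86% below.

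**Figure D1:**
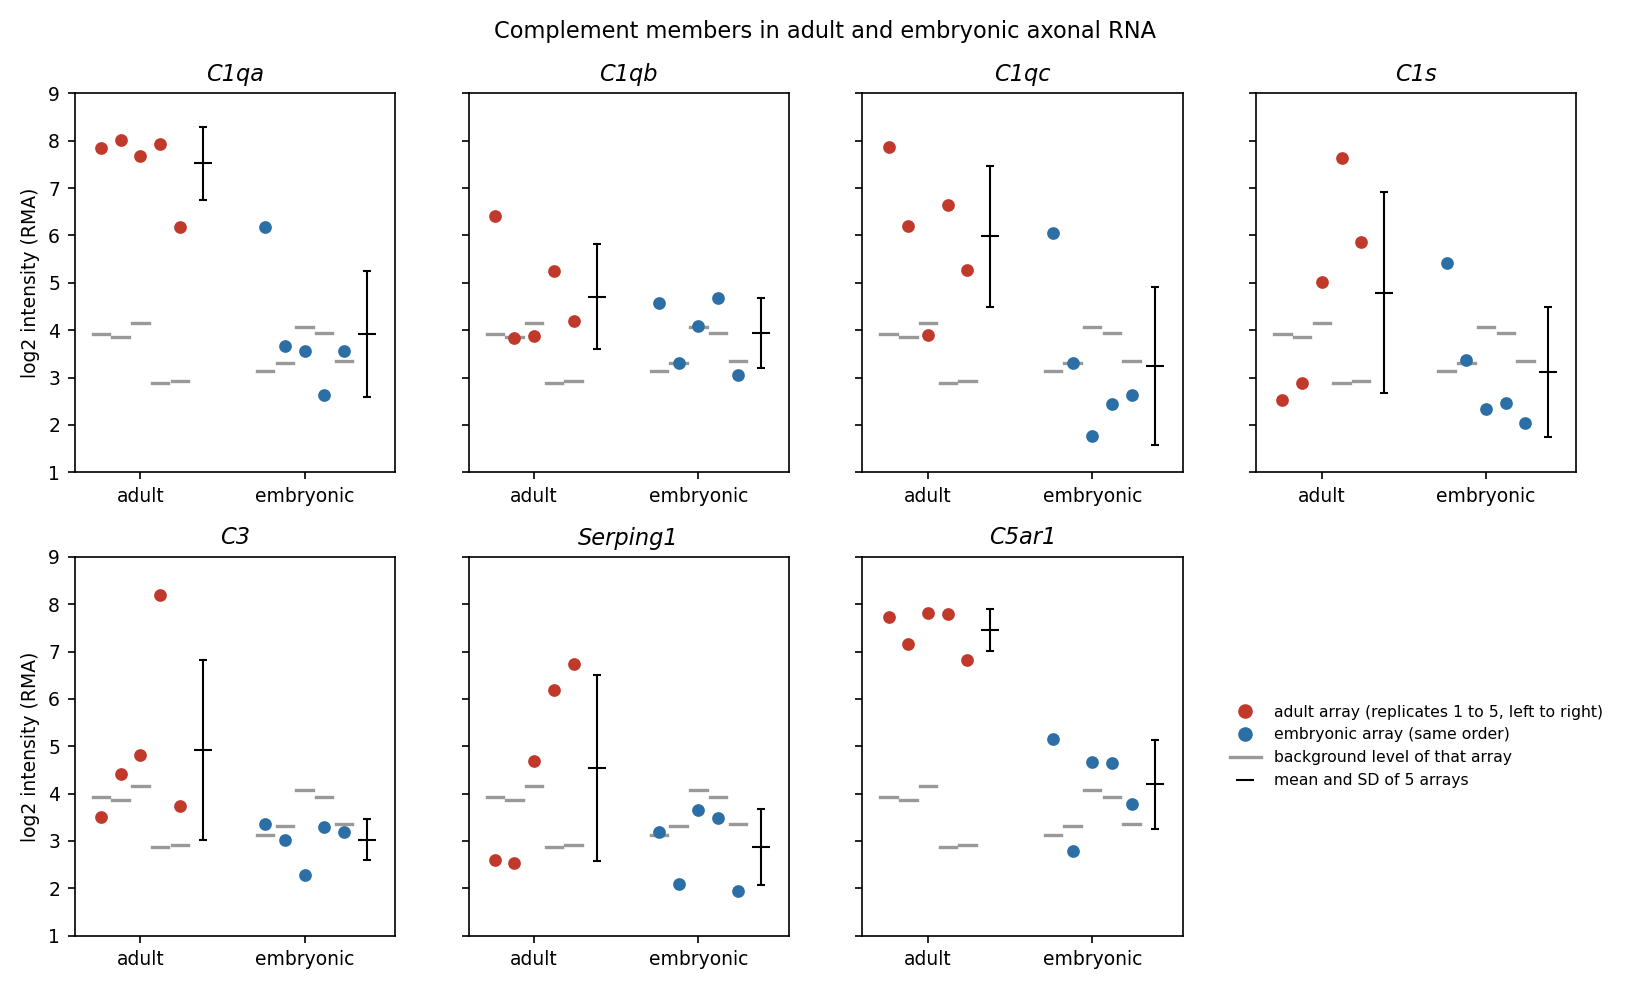
Log2 RMA intensity (vertical axis) of each complement gene on each adult and embryonic array, with the array's background level as a grey bar and the mean and SD of the 5 arrays beside the points. C1qa and C5ar1 are above background on all 5 adult arrays, embryonic replicate 1 reaches 6.18 for C1qa and 6.06 for C1qc, and C1s and Serping1 are at or below 2.89 on adult replicates 1 and 2.

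The arrays of wide spread, 2 per stage, and the others, called narrow, 3 per stage, were fitted apart. Whether any gene differed between these fits was not tested. C1qa differed by 4.56 on the log2 scale on the narrow arrays (limma adjusted p = 0.0098) and by 2.19 on the wide ones (limma adjusted p = 0.52). C5ar1 differed by 3.54 on the narrow arrays (limma adjusted p = 0.065) and by 2.84 on the wide ones (limma adjusted p = 0.21). On the 4 wide arrays limma called 0 probe sets of any gene, with 4657 at an unadjusted p under 0.05. With spread as a block, both calls held (limma adjusted p = 0.030 for C1qa and 0.012 for C5ar1).

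**Figure D2:**
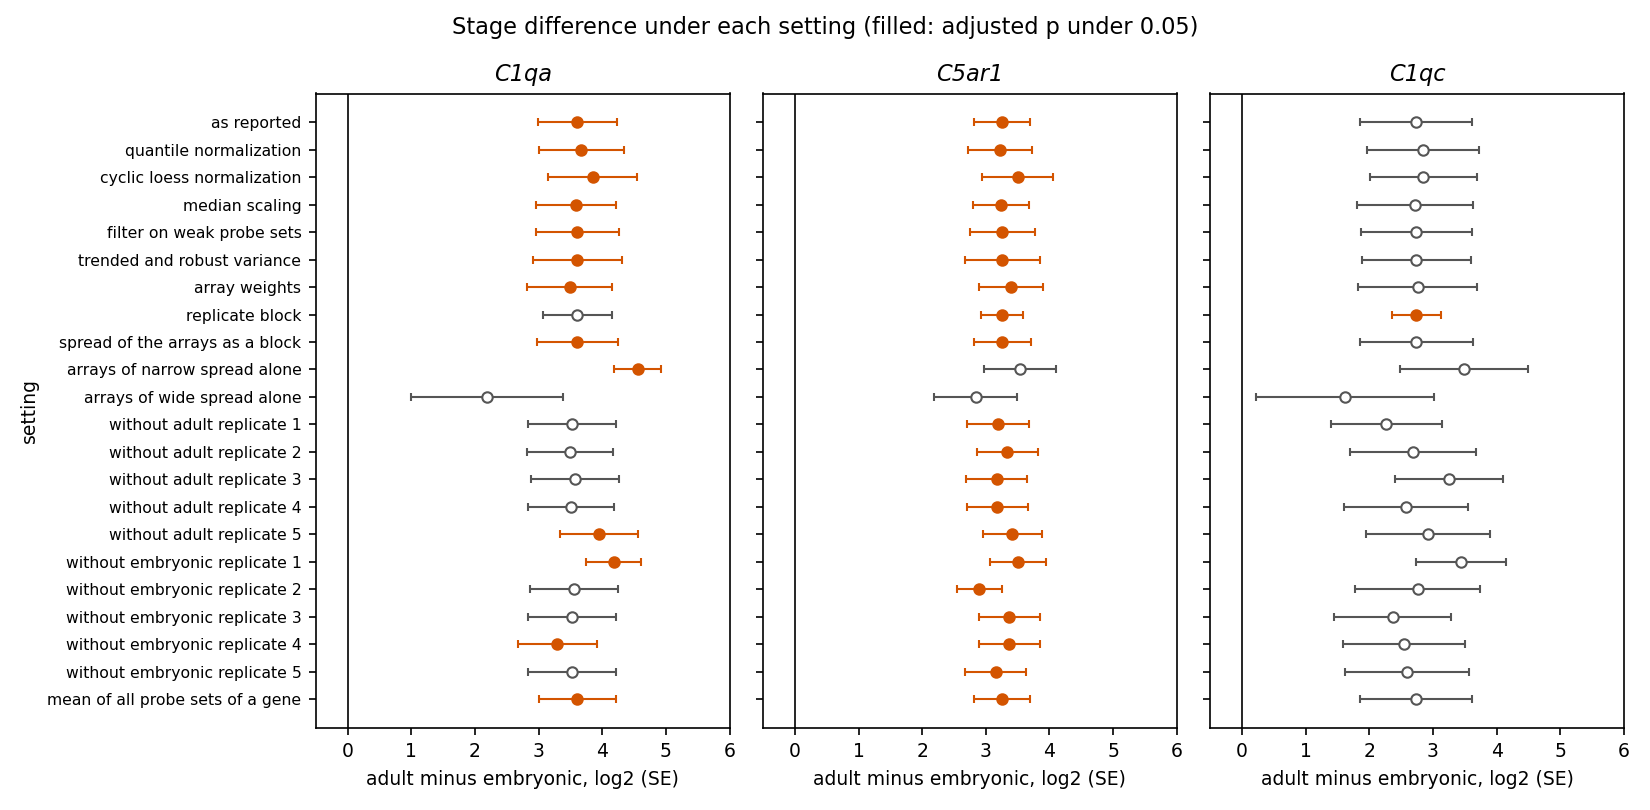
Adult minus embryonic difference on the log2 scale with its SE (horizontal axis) for C1qa, C5ar1 and C1qc under the reported setting and each alternative (vertical axis), filled where the adjusted p is under 0.05. All points lie above 0, C1qa loses its call in 7 of 10 omissions of an array and C5ar1 in 0.

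Of 42 other complement genes listed, 33 were measured, and 2 of these rose in adult samples and 0 fell. Among recognition molecules and proteases of the initiation routes, 4 of 11 had an unadjusted p under 0.05 with a higher adult level. Over all genes this share was 6.28%. Past the adjusted threshold, 1 of the 11 rose. This was Colec12, a collectin-type scavenger receptor of the cell surface. Colec12 had log2 values of 7.81, 6.49, 8.31, 8.34 and 6.57 on adult replicates 1 to 5, and of 5.12, 1.94, 1.82, 1.65 and 1.65 on embryonic ones. Embryonic replicate 1 alone was above background in its stage. The change was 5.07 ± 0.70 (SE, n = 5; limma adjusted p = 0.0082). C1r, the protease that activates C1s, ran between 4.28 and 8.58 on adult arrays (median 5.79), and between 2.78 and 4.19 on embryonic arrays (median 3.25). The stages of C1r did not overlap, but its log2 difference of 2.40 ± 0.72 did not pass (limma adjusted p = 0.21). Cfd, the protease of the alternative route, averaged 5.43 ± 1.58 in adult and 3.41 ± 1.58 in embryonic samples (SD, n = 5; limma adjusted p = 0.48).

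Among the other receptors 1 of 8 rose, and 2 of 8 were higher in adult samples at an unadjusted p under 0.05. Itgb2, the beta chain shared by the leucocyte integrins that bind cleaved C3, had log2 values of 9.17, 6.86, 9.10, 9.66 and 6.97 on adult arrays. Its embryonic values were 5.26, 2.55, 3.18, 3.59 and 4.05, all below the adult ones, and the change was 4.62 ± 0.67 (SE; limma adjusted p = 0.010). Its partner chains Itgam and Itgax, named after their values were seen, each cleared background on 2 adult and 0 embryonic arrays. Cd93, a surface protein once described as a C1q receptor, averaged 4.33 ± 1.40 in adult and 2.32 ± 0.23 in embryonic samples (SD, n = 5; limma adjusted p = 0.18). It was above background on 3 adult and 0 embryonic arrays, and its other probe set differed by 0.04 on the log2 scale. Cr1l, a membrane regulator and receptor for C3 fragments, averaged 7.38 ± 1.52 in adult and 5.44 ± 1.79 in embryonic samples (limma adjusted p = 0.54). Its other probe set differed by 0.63 on the log2 scale. C3ar1, the C3a receptor, was above background on 0 arrays and was also named after its values were seen.

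Of 8 other regulators 0 passed by limma, and 0 had an unadjusted p under 0.05. Cd55, a membrane protein that speeds the decay of convertases, averaged 5.05 ± 2.06 in adult and 3.18 ± 0.72 in embryonic samples (SD, n = 5; limma adjusted p = 0.52), and its other probe set differed by 0.21. Cd59b, a membrane inhibitor of the terminal complex, averaged 6.77 ± 3.14 in adult and 7.47 ± 1.33 in embryonic samples (limma adjusted p = 0.95). Clu, the secreted chaperone clusterin, averaged 4.51 ± 1.51 in adult and 3.95 ± 1.01 in embryonic samples (limma adjusted p = 0.92). Its other probe set differed by -0.01 on the log2 scale.

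Of 6 terminal pathway genes, which build the membrane attack complex, 0 passed by limma, 0 had an unadjusted p under 0.05 and 4 were below background on all 10 arrays. C5, the precursor of C5a, and the complex components C6 and C8b were among these 4, so no difference is given for them. Of the 33 other complement genes, 4 had adult values above embryonic ones without overlap and 0 below, against 1.67% and 1.86% of all genes. Cd93, 1 of the 4, was above background on 0 embryonic arrays.

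**Figure D3:**
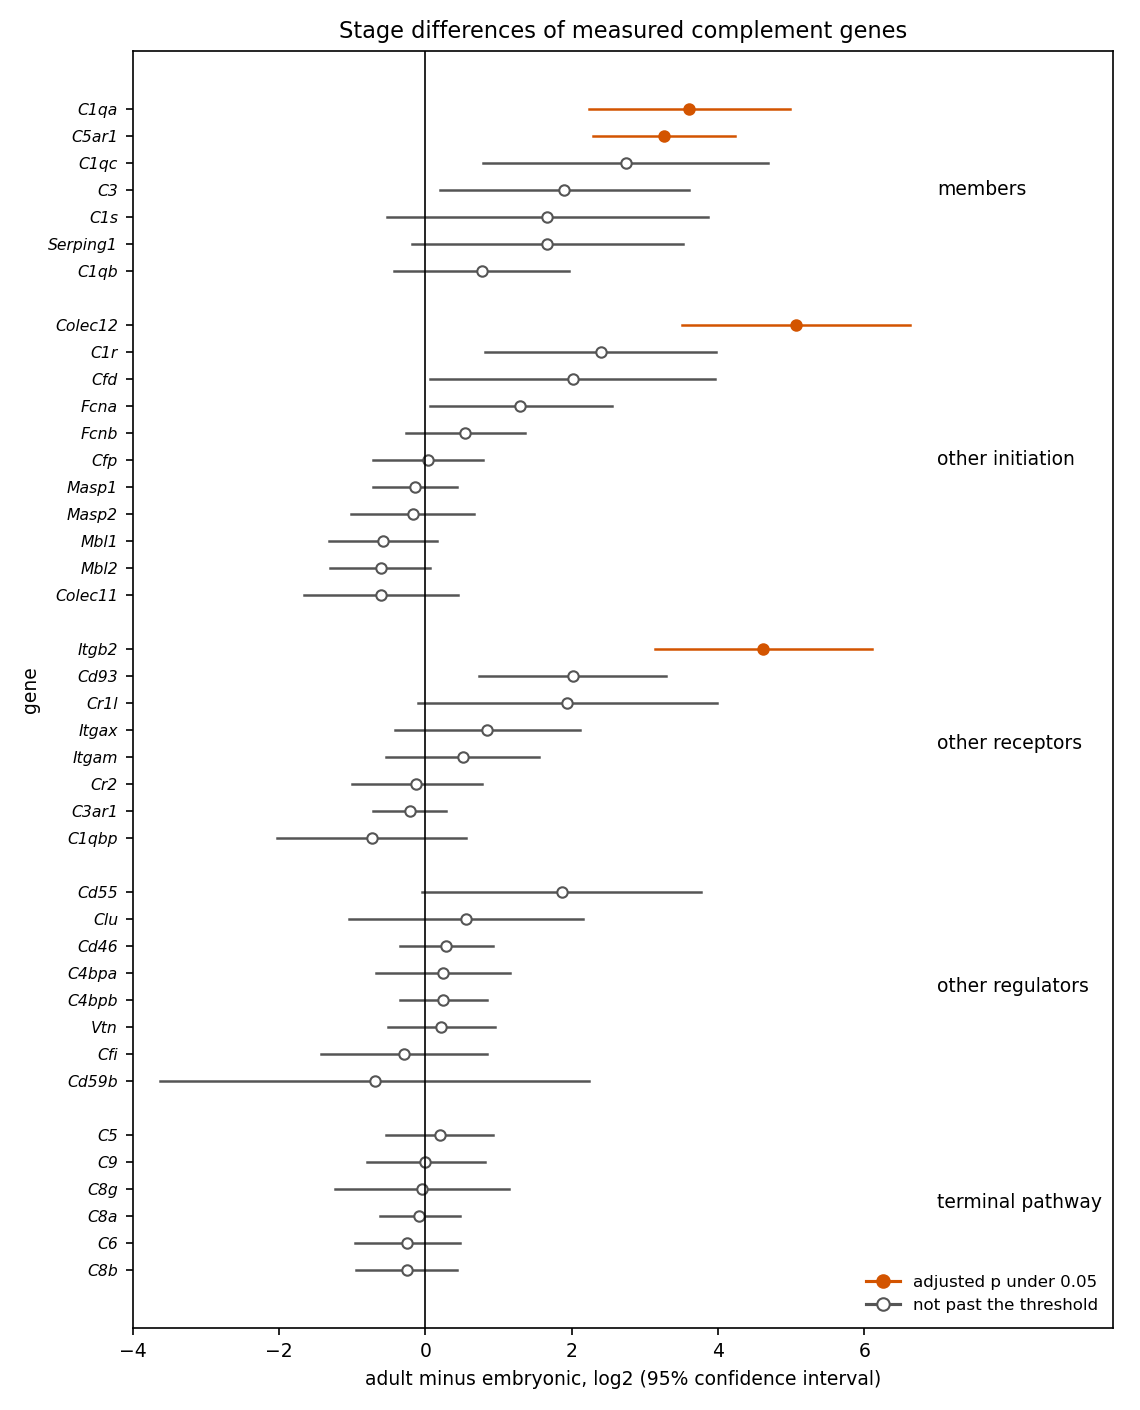
Adult minus embryonic difference on the log2 scale with its 95% confidence interval (horizontal axis) for the 7 members and 33 other measured complement genes by role (vertical axis). C1qa, C5ar1, Colec12 and Itgb2 are past the threshold. Of the 33 other genes, 11 are drawn from values below background on all arrays, among them 4 of the 6 terminal pathway genes.

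Markers of other cell types that an explant could hold were read beside these genes. Of 20 measured macrophage markers 11 rose and 0 fell, with a median change of 4.04. Adgre1, a macrophage surface receptor, and Lyz2, a lysozyme of macrophages, changed most, each by 6.69 on the log2 scale (limma adjusted p = 0.0022 each). The mean of the list was 8.20, 7.10, 7.66, 8.31 and 6.78 on adult replicates 1 to 5, and 5.94, 3.57, 3.57, 3.54 and 3.60 on embryonic replicates 1 to 5. Embryonic replicate 1 was the highest of its stage for this mean, and likewise for C1qa, C1qc, C5ar1, Colec12 and Itgb2, but also for C1s and C3. Adult replicate 5 was the lowest of its stage for the mean, C1qa and C5ar1, whereas replicate 3 was the lowest for C1qc and replicate 2 for Colec12 and Itgb2. Without embryonic replicate 1, C1qa changed by 4.18 (limma adjusted p = 0.0024) and C5ar1 by 3.50 (limma adjusted p = 0.0061). Above background on all arrays of a stage were 16 of the 20 markers in adult and 4 in embryonic samples, against 3232 and 4148 of all 14217 genes. The part of macrophage RNA in these changes was not tested.

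By limma 0 of 11 fibroblast markers passed, while at an unadjusted p under 0.05 there were 2 with a higher and 2 with a lower adult level. The list mean was 3.22, 3.61, 4.90, 6.34 and 6.42 on adult replicates 1 to 5, with 4.09 to 5.30 on embryonic arrays. Dcn, the matrix proteoglycan decorin, was at 2.78, 4.72, 9.30, 10.84 and 10.21 on adult arrays and at 2.06 to 4.01 on embryonic arrays. It was named after its values were seen and is not typical of its list, of which 4 of 11 differences were above 0 and the median was -0.34. Postn and Mmp2, secreted matrix proteins of fibroblasts also named after their values were seen, differed by -3.63 and -2.72 on the log2 scale (limma adjusted p = 0.22 and 0.27). Adult replicates 3, 4 and 5, high for Dcn, were also the highest adult arrays for C1s, Serping1 and C1r. This did not hold for C3, which was at 3.74 on adult replicate 5 and 4.41 on adult replicate 2. Embryonic replicate 1, at 5.41 for C1s, was at 3.72 for Dcn and 4.82 for the list mean. The part of fibroblast RNA in the values of C1s, C1r, Serping1 and C3 was not tested.

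The Schwann cell, satellite glial, endothelial and neutrophil lists had 0 genes past the threshold by limma. At an unadjusted p under 0.05 there were 2 Schwann cell markers and 1 satellite glial marker higher, 1 endothelial marker higher and 1 lower, and 0 neutrophil markers. The 5 neutrophil markers averaged 2.20 to 2.89 on adult and 2.09 to 2.62 on embryonic arrays, and 3 of them were below background on all arrays. The list means of 9 Schwann cell markers were 4.68 to 6.71 on adult and 4.45 to 5.29 on embryonic arrays. Those of 5 satellite glial markers were 3.42 to 6.46 and of 7 endothelial markers 2.79 to 3.46 on adult arrays, and 4.98 to 5.25 and 2.60 to 3.31 on embryonic arrays.

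**Figure D4:**
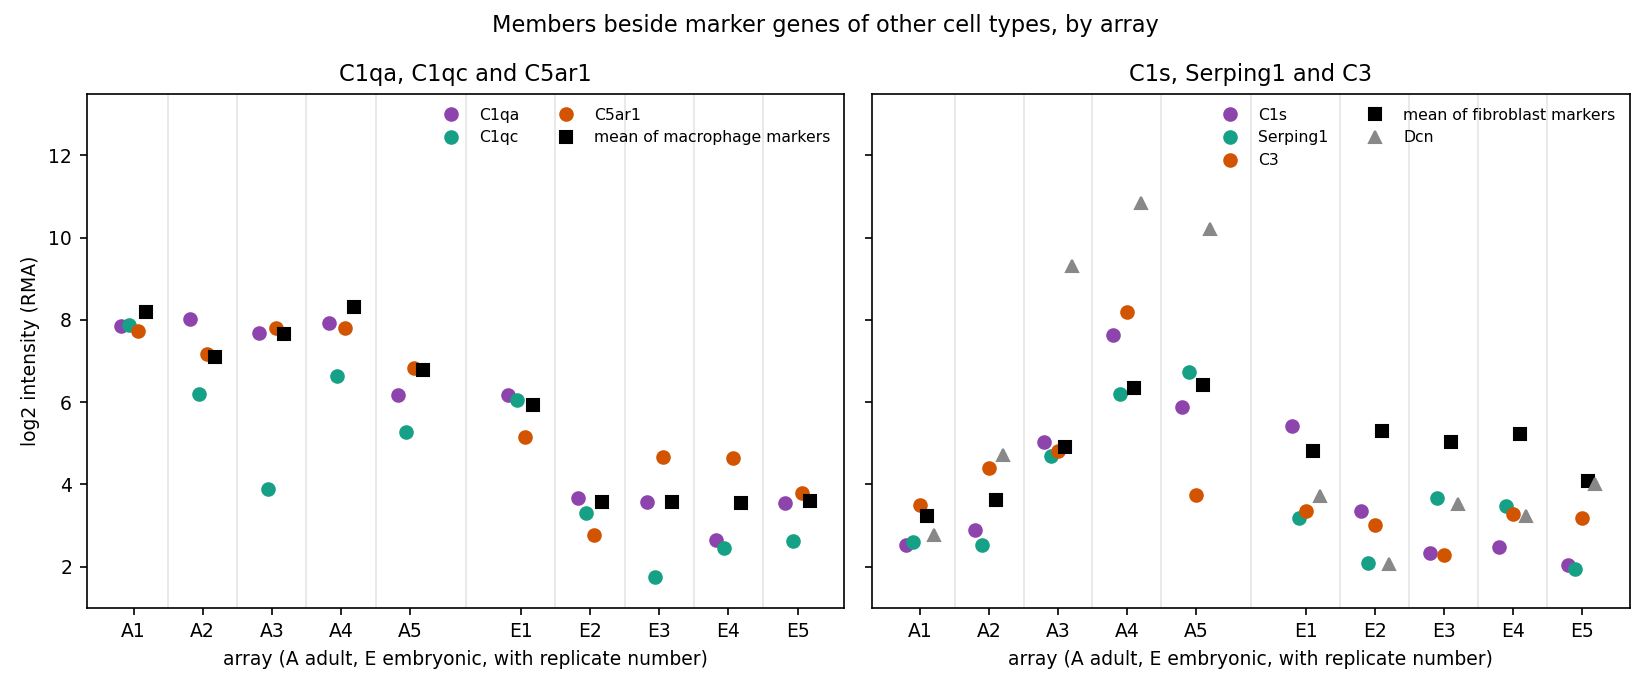
Log2 RMA intensity (vertical axis) on each adult (A) and embryonic (E) array. The left panel sets C1qa, C1qc and C5ar1 beside the mean of 20 macrophage markers, with embryonic replicate 1 at 5.94 for that mean, and the right panel sets C1s, Serping1 and C3 beside the mean of 11 fibroblast markers and Dcn, which is at 9.30 or more on adult replicates 3 to 5 and is not typical of that list.

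The genes most like C1qa and C5ar1 were found as those with the smallest mean absolute difference over the 10 arrays, after each gene was centred on its own mean. The arrays fall into the same stages for every gene, so the measure is a description. For C1qa the nearest were Nrros, a transmembrane protein of myeloid cells (0.30 on the log2 scale), the membrane protein Cln8 (0.46) and Rac2, which helps to activate the phagocyte oxidase (0.50). Nrros averaged 6.78 ± 0.57 in adult and 3.39 ± 1.29 in embryonic samples (SD, n = 5; limma adjusted p = 0.022). For C5ar1 they were Lpar6, a lysophosphatidic acid receptor (0.23), the folate receptor Folr2 (0.47) and Rilpl2 (0.47). Lpar6 averaged 6.23 ± 0.49 in adult and 3.01 ± 0.78 in embryonic samples (SD, n = 5; limma adjusted p = 0.0047). Cln8, Rac2, Folr2 and Rilpl2 did not pass the threshold (limma adjusted p = 0.093, 0.066, 0.057 and 0.065).

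Among the 7 genes themselves, C1qa and C5ar1 were the nearest pair by this measure (0.71), followed by C1qa with C1qc (0.85) and C1s with Serping1 (0.88). C1qa and C1qb lay 1.46 apart, and the largest distance was 1.89, between C1qc and Serping1.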

How the data were processed

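Axonal RNA of 5 adult and 5 embryonic rat samples was measured on Affymetrix rat arrays. The values deposited by the authors are log2 intensities made with RMA, per the submitters' processing notes. The sources used here give no RMA version or options, and the base of the logarithm was taken from the range of the values. RMA compresses differences of weak probe sets. Array medians were 2.85 to 3.14, and the number of arrays limits the precision.

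Of 31099 probe sets 57 controls were left out of the fit. Of the rest, 20826 have a single symbol, 436 several and 9780 are unnamed here. Of the single-symbol probe sets 20758 were found by gene number in RefSeq GRCr8, with 0 symbols updated. A gene was represented by its probe set with the highest mean. Stage differences, adult minus embryonic, came from two-sided tests in limma 3.58.1 (lmFit, then eBayes) under R 4.3.3, with Benjamini-Hochberg adjustment over 31042 probe sets. The fit was tested on simulated data. No filter was used. Figures were drawn with Python 3.11.15 and matplotlib 3.10.9.

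The labels call the samples biological replicates, and p-values measure the spread between them. The genes, lists and rules were chosen with earlier results of these data known. Named genes were all members, other complement genes that were called or had up to 3 of the largest differences in their role, up to 2 called genes of a marker list, and the 3 genes nearest to each called member. The alternatives were other normalizations, a filter on weak probe sets, variance models, array weights, blocks and leaving out each array.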

Additional observations from a re-analysis of the deposited data

Results flagged for a closer look

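In 14 sets of 5 arrays, 1 for each of the 7 genes in each stage, an array was picked out when its gap to the nearest other array exceeded 0.71 of the whole range of its stage. Chance flags about 1 in 20 such sets, and here 3 of 14 were picked out.

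C1qa on adult replicate 5 was at 6.17, against 7.69 for the next lowest adult array. C1qa on embryonic replicate 1 was at 6.18, against 3.66 for the next highest embryonic array. C3 on adult replicate 4 was at 8.19, against 4.81 for the next highest adult array.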

How the results depend on the processing

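The counts of calls and the log2 differences of the 7 genes were recomputed under the alternatives, and 0 of these differences changed sign. The counts above background were recomputed only with other percentiles and without each array, and marker lists, overlaps, unadjusted counts and nearest genes were not recomputed. The count of called members was 2 with quantile, cyclic loess and median scaling, the filter, the other variance model, array weights, the spread block and averaged probe sets, and in each of these the called genes were C1qa and C5ar1. It was 1 on the arrays of narrow spread and 0 on those of wide spread, which are fits on fewer samples, and 1 to 2 after leaving out 1 array. Other complement genes called were 2 under all alternatives except the arrays of wide spread alone, with 0. Among all probe sets 258 were called, 432 after the filter on weak probe sets, 401 with spread as a block, 150 to 339 after leaving out 1 array, and 0 on the arrays of wide spread, with 4657 at an unadjusted p under 0.05. Members above background on all arrays numbered 2 of 7 in adult and 0 in embryonic samples, against 3232 and 4148 of all 14217 genes. With the 90th percentile as background 1 member, C1qb, was above it on all embryonic arrays, and leaving out 1 array gave 2 to 3 in adult and 0 to 1 in embryonic samples. The causes were not tested. The filter removed Serping1, which then had no value.

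The replicate numbers showed no clear pairing of the samples. Deviations from the stage means of same-numbered arrays correlated at -0.122 to 0.276, and 1 of 5 adult arrays correlated best with its own number. These values cannot exclude a pairing, which was not tested. With the replicate block 191 probe sets and 2 members were called, C1qc (limma adjusted p = 0.042) and C5ar1 (0.020), while C1qa was at 0.050, above the threshold before rounding.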
